A study of Mus musculus with 49 samples.

Results

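Transcripts of 10 regulators of the cell division cycle were followed in single mouse embryos at the late 2-cell stage: the cyclins Ccna1, Ccna2, Ccnb1, Ccnb2, Ccne1 and Ccne2, the cyclin-dependent kinases Cdk1 and Cdk2, and the phosphatases Cdc25a and Cdc25b. They were chosen by name, as the rows of the count tables whose Ensembl identifier carries one of these symbols in the GENCODE annotation of GRCm38, and make up 10 of the 54838 genes counted. After depletion of TBP, 6 of the 9 that had enough reads to be tested were lower. Of all genes and transposable element families, 29.7% were. Under a stricter filter on reads 53.2% of genes were, and in that fit Ccne2 passed as well. Cdk2 (3.72-fold), Ccnb1 (3.12-fold) and Cdk1 (2.84-fold) fell most. These 3 were also called under a scaling that removes the drop shared by most genes in those embryos and calls 12.7% of all features lower. Depletion of FOXJ3 gave no call among the same 9 genes, where only 0.0102% of all features were called.

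A cyclin-dependent kinase is active only when bound by a cyclin, and the identity of the cyclin follows the phase of the cycle. Cyclin E with CDK2 is known for entry into DNA replication, cyclin A with CDK2 or CDK1 for replication and the approach to mitosis, and cyclin B with CDK1 for mitosis itself. WEE1 and related kinases hold the complex inactive by phosphorylating the kinase subunit, and CDC25 phosphatases remove that phosphate. The oocyte hands over stores of these RNAs and proteins, and the embryo replaces them with its own transcripts as the genome is activated at the 2-cell stage, which in the mouse has a long G2 phase before the next division.

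All embryos were F1(C57BL/6JxCBA/H), collected as zygotes 17 to 18 h after hCG, injected with antibody, cultured for 4 h, injected with Trim21 mRNA and lysed singly at 48 h, so that the controls had also received an antibody and Trim21. In Trim-Away, the ubiquitin ligase TRIM21 directs a protein bound by an injected antibody to degradation. The TBP experiment holds 9 embryos injected with TBP antibody (TBP LOF, for loss of function) and 10 with mouse IgG (CONTROL) by the labels, which are followed here. The methods of the study give these numbers the other way round, but also state that 1 control embryo of this experiment was removed. The 9 and 9 embryos that the study analysed follow from that removal only with the numbers of the labels. The FOXJ3 experiment holds 17 embryos with FOXJ3 antibody (FOXJ3 LOF) and 13 with rabbit IgG (CONTROL), processed in 2 batches. The embryos came from at least 3 independent experiments, which the labels do not assign to embryos. Each embryo gave 1 library by Smart-seq+5', which tags the 5' ends of transcripts in a protocol that otherwise covers their whole length, and the counts are of reads from those ends. A replicate is thus 1 embryo, p-values measure the spread between embryos, and a level is the mean over both cells of an embryo, so that less RNA per cell and a different mixture of cells cannot be told apart.

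After the read and quality limits of the study, 47 of 49 embryos were kept (9 TBP LOF and 9 mouse IgG, 16 FOXJ3 LOF and 13 rabbit IgG), with 1103569 to 5434808 counted reads. Tbp RNA itself, which Trim-Away does not target, had a median of 61.5 CPM (counts scaled to the library's reads on genes and transposable elements) in TBP LOF against 140 CPM in its controls and was 4.42-fold lower (edgeR quasi-likelihood test with ERCC scaling, adjusted p = 5.26e-06). Foxj3 RNA was at a median of 139 CPM in FOXJ3 LOF and 130 CPM in its controls. These values check no label, since protein was the target. Of 9 markers of the 2-cell embryo, 8 had a median above 1 CPM in every group. Of 9 cumulus cell markers, 6 or 7, Fshr and Foxl2 among them, had a median of 0. Tnfaip6 and Amhr2 had a median above 0 in every group, and 1 or 2 of the 9 had one above 1 CPM. These 9 summed to group medians of 18.0 CPM (TBP LOF) to 28.0 CPM (rabbit IgG CONTROL). The share of reads on ERCC spike-in RNA rises when an embryo gives less RNA of its own. Its median was 3.75% in rabbit IgG CONTROL (1.90% to 6.74%) and 2.78% in FOXJ3 LOF (2.09% to 7.88%). In the TBP experiment it was 4.38% in TBP LOF (2.67% to 6.12%) and 2.82% in the controls (2.22% to 3.25%). Spike-in scaling therefore placed the median gene 0.70 lower (log2) in TBP LOF, and scaling by trimmed mean of M values (TMM), which ignores a shift shared by most genes, placed it 0.13 higher. Both are given where they separate the calls.

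To show what precedes these genes, the bases upstream of 4 of them are printed, the 3 that were lower under both scalings and Ccnb2, the paralog of Ccnb1 that was not. The 150 bases shown end where the transcribed region begins in RefSeq or in GENCODE, whichever lies further upstream, are taken from RefSeq (GRCm38.p6) and read 5' to 3' on the gene's strand. Capitals mark every match, on either strand, to CCAAT (the CCAAT box, bound by NF-Y), TTTGAA (the cell cycle homology region, bound by the MuvB complex) or an E2F site, which was searched as TTCCCGC, as TTGGCGC, as TTCGCGC and as TTGCCGC. The windows are chr13:100786571-100786720 for Ccnb1, chr9:70421555-70421704 for Ccnb2, chr10:69352939-69353088 for Cdk1 and chr10:128705052-128705201 for Cdk2, all on the minus strand.
Ccnb1: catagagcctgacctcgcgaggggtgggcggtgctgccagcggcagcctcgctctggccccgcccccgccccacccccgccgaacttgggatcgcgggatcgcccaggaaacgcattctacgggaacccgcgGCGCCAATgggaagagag
Ccnb2: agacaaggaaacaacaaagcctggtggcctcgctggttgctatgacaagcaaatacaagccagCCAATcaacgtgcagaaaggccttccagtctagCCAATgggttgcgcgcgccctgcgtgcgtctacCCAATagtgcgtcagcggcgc
Cdk1: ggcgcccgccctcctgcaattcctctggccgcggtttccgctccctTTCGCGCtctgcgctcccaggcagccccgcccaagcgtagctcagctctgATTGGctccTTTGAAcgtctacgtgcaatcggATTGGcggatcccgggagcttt
Cdk2: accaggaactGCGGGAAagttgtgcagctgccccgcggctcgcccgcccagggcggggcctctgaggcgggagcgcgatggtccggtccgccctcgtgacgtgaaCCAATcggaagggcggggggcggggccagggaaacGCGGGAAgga

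RefSeq windows, from 250 bases before to 50 after the start, were at hand for 8 of the 10 genes, all but Ccna2 and Ccne2. No TATA box (TATAAA, the sequence known for binding TBP directly) stood in any of these 8 windows, against 13.6% of all 32851 promoter windows. A CCAAT box stood in 7 of 8, all but Ccne1, against 37.4% of all windows. An E2F site stood in 4 (Ccnb1, Cdk1, Cdk2 and Cdc25a), against 9.57%, and in Ccnb1 it overlaps the CCAAT box printed above. The TTTGAA motif stood in 2, Ccnb2 and Cdk1, against 17.9%. The windows of these genes had a median G+C content of 65.0% against 52.7% over all windows. A match is only a run of letters, and the absence of one says only that these letters are not in this window.

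In control embryos, the regulators covered a wide range of levels, and each of the 3 cyclin types had one dominant gene. Per kilobase of exon, the medians over the 22 control embryos of both experiments were 160 CPM for Ccnb1, 130 CPM for Ccne1, 120 CPM for Ccna2 and 95.8 CPM for Cdk1. Below these 4 came Ccnb2 (23.5 CPM per kilobase), Cdk2 (17.7), Ccne2 (7.71), Cdc25a (1.82) and Cdc25b (1.51). Since the reads are of 5' ends, whose number need not grow with length, the order without division by length is given too: median CPM was 673 for Ccnb1, 489 for Ccna2, 473 for Cdk1, 347 for Ccne1, 110 for Cdk2, 36.0 for Ccnb2, 26.9 for Ccne2, 14.6 for Cdc25a and 5.64 for Cdc25b. On that scale Ccna2 and Cdk1 stand above Ccne1, and Cdk2 above Ccnb2. The control groups taken singly differed in 2 steps: in mouse IgG CONTROL, median CPM of Cdk1 (447) was above that of Ccna2 (405), and Cdc25b (1.85 CPM per kilobase) was above Cdc25a (1.80), while rabbit IgG CONTROL had the order of the pooled embryos. Ccna1, the cyclin A known from germ cells, had 0 reads in all 22 control embryos, which allows up to 0.0653 CPM (3 reads in all their libraries, counting error only). It had 1 read each in 1 TBP LOF and 1 FOXJ3 LOF embryo and was not tested. For the 9 genes with reads in controls, the ranges of neighbours in the order per kilobase overlapped between embryos, those of Ccnb1 (110 to 333 CPM per kilobase) and Ccne1 (53.8 to 206) for example.

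TBP LOF and CONTROL embryos were compared to ask what transcription by TBP contributes to these RNAs. On the scale of spike-in RNA, 6 of the 9 tested regulators were lower in TBP LOF at an adjusted p under 0.05 (edgeR, Benjamini-Hochberg over 19356 genes and transposable element families), and none was higher. Over all features, 29.7% were called lower and 1.34% higher. The median log2 fold change of the 9 was -1.0 against -0.70 for all genes tested. With features selected by filterByExpr of edgeR, which asks for more reads, 53.2% of genes were called lower, and Ccne2 passed as well. The median gene of that fit was at -0.91. With TMM, 3 of 9 were called lower where 12.7% of all features were, and the median of the 9 was -0.06.

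The B-type cyclins parted. Ccnb1 (ENSMUSG00000041431.16, chr13:100778650-100786570), the main cyclin B of mitosis, had 1004 to 1944 ERCC-normalised reads in the 9 control embryos with a median of 1234, and 106 to 848 with a median of 379 in the 9 TBP LOF embryos. Every TBP LOF embryo lay below every control embryo, a separation in this direction found for 6.69% of all features. The change was 3.12-fold (95% interval 2.03 to 4.80; log2 -1.64 ± 0.31 SE, edgeR adjusted p = 2.82e-05), and with TMM it was 1.80-fold (1.31 to 2.47; edgeR adjusted p = 0.00504). Ccnb2 (chr9:70407692-70421547), a cyclin B that also binds CDK1, had 48.9 to 101 normalised reads in controls (median 72.8) and 16.9 to 77.3 in TBP LOF (median 46.9). These ranges overlapped, and the difference did not pass the threshold (log2 -0.65 ± 0.31 SE, edgeR adjusted p = 0.110), while with TMM its estimate was 0.21.

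Both kinases fell. Cdk2 (ENSMUSG00000025358.16, chr10:128697939-128705031), the partner of cyclins E and A, had 157 to 367 normalised reads in controls (median 212) and 22.9 to 144 in TBP LOF (median 42.1), again with no overlap. It was 3.72-fold lower (95% interval 2.36 to 5.86; log2 -1.89 ± 0.33 SE, edgeR adjusted p = 6.69e-06), the largest change among the 9, and 2.08-fold lower with TMM (1.46 to 2.97; edgeR adjusted p = 0.00216). Cdk1 (ENSMUSG00000019942.13, chr10:69335146-69352938), the kinase of mitosis, had 679 to 1739 in controls (median 906) and 75.4 to 686 in TBP LOF (median 356). Of the 9 TBP LOF embryos, 8 lay below the lowest control, and the highest, at 686, exceeded it slightly. The change was 2.84-fold (95% interval 1.82 to 4.44; edgeR adjusted p = 0.000169), and 1.62-fold with TMM (1.15 to 2.30; edgeR adjusted p = 0.0346).

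Of the cyclins A and E, Ccna2 and Ccne1 fell by an amount nearer to that of the median gene, and Ccne2 did not pass. Ccna2 (chr3:36564865-36572150), the cyclin A of dividing somatic cells, had 509 to 1457 normalised reads in controls (median 869) and 153 to 919 in TBP LOF (median 414). It was 2.07-fold lower (95% interval 1.36 to 3.15; edgeR adjusted p = 0.00514), with 7 of 9 embryos below the lowest control. Ccne1 (chr7:38097984-38107534), which with CDK2 starts DNA replication, had 401 to 1107 in controls (median 564) and 226 to 715 in TBP LOF (median 340), and was 1.77-fold lower (1.19 to 2.65; edgeR adjusted p = 0.0227). Ccne2 (chr4:11191351-11204779), its less abundant paralog, had 49.7 to 105 in controls (median 57.8) and 10.1 to 88.6 in TBP LOF (median 40.4) and did not pass the threshold (log2 -0.80 ± 0.34 SE, edgeR adjusted p = 0.0676). With TMM none of the 3 was called, with estimates of -0.22 for Ccna2, 0.06 for Ccne1 and 0.11 for Ccne2. The call for Ccne1 was lost without CONTROL embryo 10 (edgeR adjusted p = 0.0656), and Ccne2 passed without TBP LOF embryo 9 (0.0146) and when features were selected by filterByExpr of edgeR (0.0447).

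The phosphatases were the least abundant of the 9 tested genes in the controls. Cdc25a (chr9:109875579-109893895), known for the start of replication and for mitosis, had 16.3 to 92.7 normalised reads in controls (median 26.6) and 6.12 to 33.3 in TBP LOF (median 19.1). It was 2.00-fold lower (95% interval 1.18 to 3.39; edgeR adjusted p = 0.0376) with ranges that overlapped. The call was lost on leaving out any one of TBP LOF embryos 2, 5 and 7 or CONTROL embryos 1, 5 and 10, with edgeR adjusted p-values up to 0.174 (without CONTROL embryo 1, the highest of its group), and with TMM the estimate was -0.06. Cdc25b (chr2:131186949-131198497), known for the resumption of meiosis in the oocyte, had 1.66 to 30.7 in controls (median 14.9) and 3.69 to 27.1 in TBP LOF (median 12.2), a difference that did not pass (log2 -0.25 ± 0.46 SE, edgeR adjusted p = 0.735). At these depths its interval reached from a 2.25-fold decrease to a 1.58-fold increase.

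**Figure D1:**
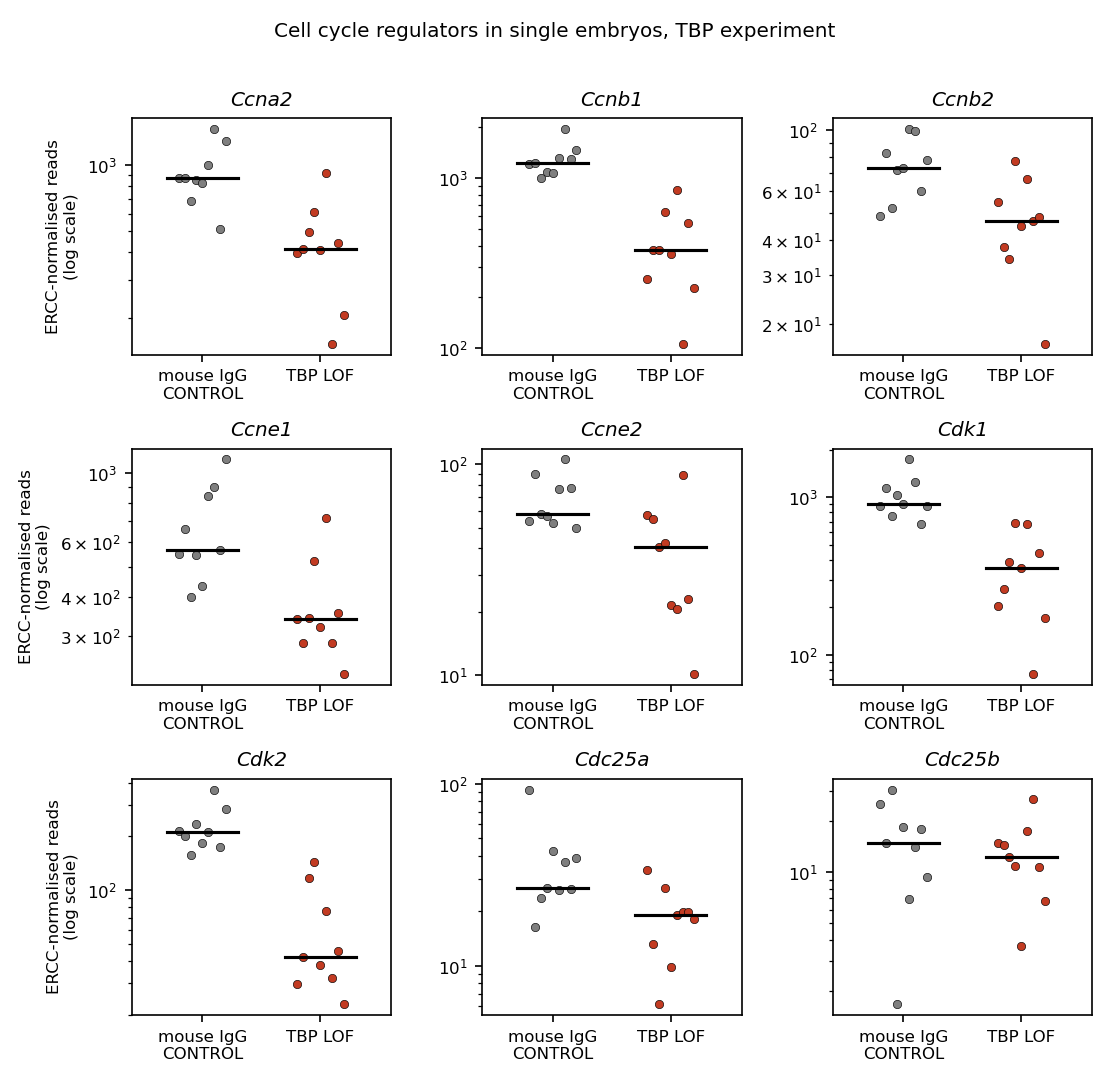
ERCC-normalised reads (vertical axis, log scale) of 9 regulators in single embryos of the TBP experiment. Each point is 1 embryo (9 mouse IgG CONTROL, 9 TBP LOF) and each bar a median. For Ccnb1 and Cdk2 every TBP LOF point lies below every control point, and the clouds of Cdc25b overlap almost completely.

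The TBP LOF embryos were not alike. Embryo 9 had the lowest CPM of its group in Ccna2 (122), Ccnb1 (84.4) and Cdk1 (60.0), and at the same time the highest in Ccne2 (70.4) and Cdc25b (21.5). A control of the FOXJ3 experiment, described below, also had low Ccna2 and Cdk1 beside high Ccne2 and Cdc25b. Embryo 6 had the highest CPM of Ccnb1 (398), Ccnb2 (48.8), Ccne1 (330), Cdk1 (433) and Cdk2 (90.7). With embryo 9 or any other embryo left out, Ccnb1, Cdk1, Cdk2 and Ccna2 kept their calls under ERCC scaling. The TMM fit of this experiment was not repeated without single embryos. Markers of the oocyte, 7 of 7 of which had a median above 1 CPM in every group, summed to a median of 2639 CPM in TBP LOF (1899 to 3446) and 1385 CPM in the controls (815 to 2384). Those of the 2-cell embryo summed to 953 CPM (394 to 1169) and 241 CPM (150 to 606). CPM rises for an unchanged transcript when an embryo's total RNA falls, and these sums were not put on the spike-in scale. The ERCC share had medians of 4.38% in TBP LOF and 2.82% in the controls, in proportion a smaller step than in either sum. How much of either rise comes from total RNA was not tested. The study, which scaled to spike-ins, names Zscan4 genes, Eif4e3 and Zfp352 as not affected by TBP loss. It also reports that TBP LOF embryos lay nearer to earlier stages in a principal component analysis. In its hands a later cleavage division and blastocyst formation were delayed, without an arrest at the 2-cell stage. The part of such a delay, of the shift in both marker sets and of the ERCC share in the changes of the cell cycle regulators was not tested.

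**Figure D2:**
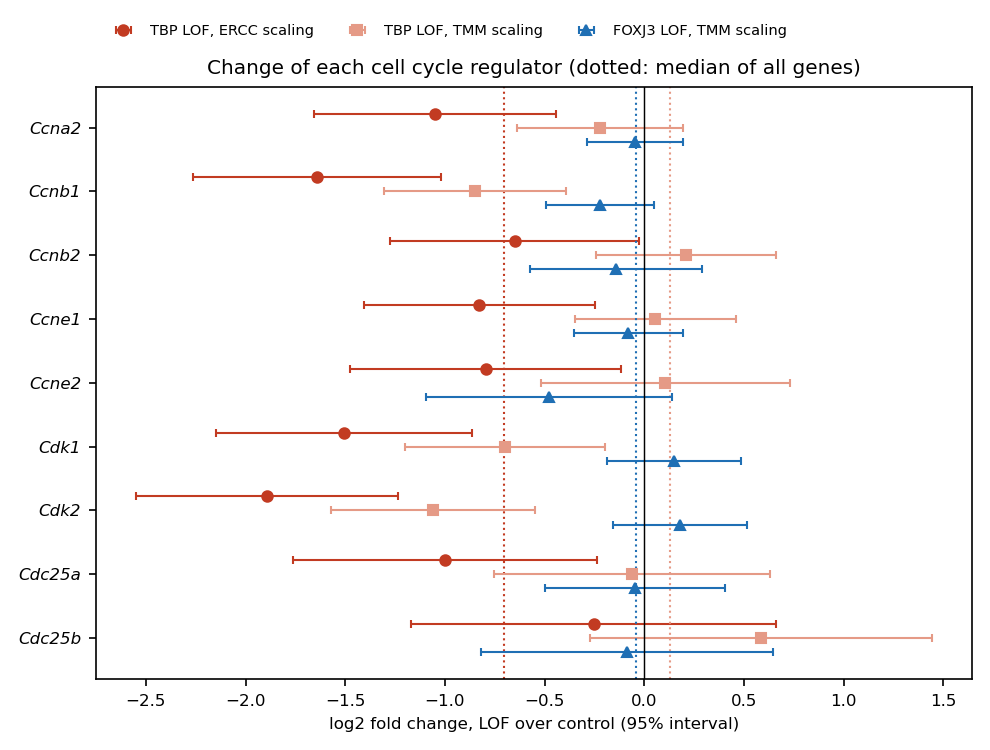
Log2 fold change of LOF over control for 9 regulators with 95% intervals, for TBP LOF scaled by ERCC spike-ins (circles) or TMM (squares) and for FOXJ3 LOF scaled by TMM (triangles). Dotted lines give the median of all genes in each comparison, -0.70, 0.13 and -0.04. Ccnb1, Cdk1 and Cdk2 lie left of 0 with their whole interval under both TBP scalings.

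Reads of 2 paralogs in the same embryo can be compared without any scaling. The log2 ratio of Ccnb1 to Ccnb2 (0.5 reads added to each) was 4.13 ± 0.30 (SD, n = 9) in control embryos of the TBP experiment and 3.00 ± 0.83 (SD, n = 9) in TBP LOF, with ranges of 3.70 to 4.60 and 1.17 to 3.73. In medians, there were 18.7 reads of Ccnb1 for each read of Ccnb2 in controls and 9.87 in TBP LOF. The difference of -1.12 was larger than the spread (two-sided exact permutation test over embryos, p = 8.23e-05, adjusted over 10 ratios p = 0.000823, where the smallest p that 9 against 9 embryos allow is 4.11e-05). It ranged from -1.22 to -0.90 when each embryo was left out in turn, with adjusted p-values of at most 0.00288 in the exact permutation test.

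The other ratios did not pass. Cdk1 to Cdk2 differed by 0.38, from 2.18 ± 0.42 (SD, n = 9) in controls to 2.56 ± 0.71 (SD, n = 9) in TBP LOF (exact permutation test, adjusted p = 0.444). Ccne1 to Ccne2 differed by 0.16 (exact permutation test, adjusted p = 0.852; from -0.04 without TBP LOF embryo 8 to 0.38 without embryo 9) and Cdc25a to Cdc25b by -0.82 (exact permutation test, adjusted p = 0.359). The ratio of Ccna2 to Ccna1 rests on the added 0.5 reads, since Ccna1 had almost none, and is not read here (exact permutation test, adjusted p = 0.308).

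**Figure D3:**
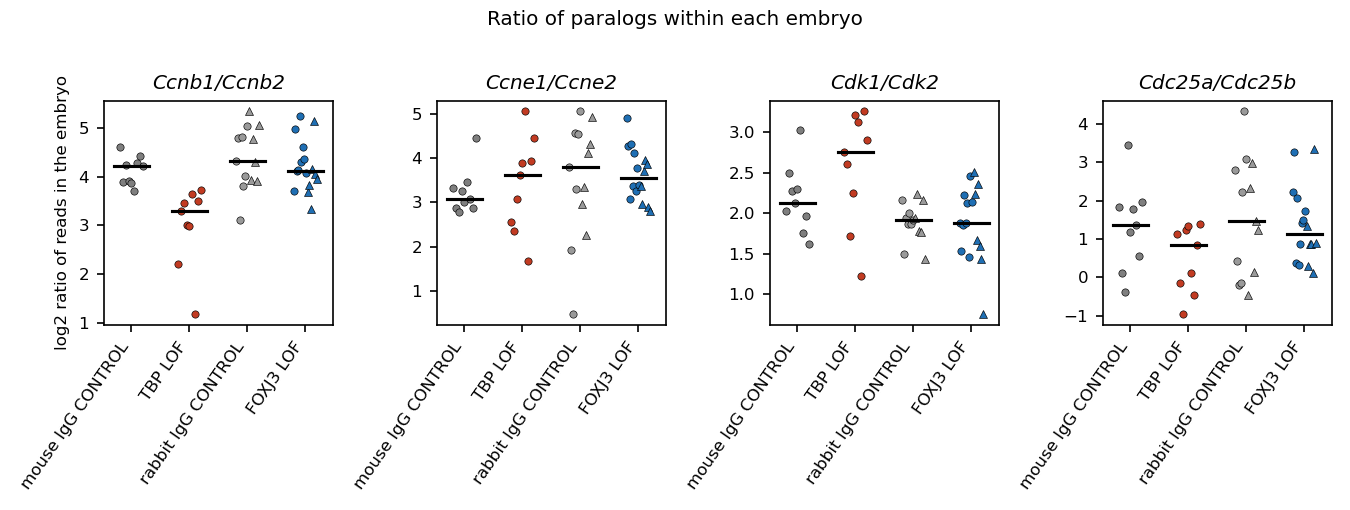
Log2 ratio of the reads of 2 paralogs in the same embryo, in all 4 groups. Each point is 1 embryo (circles, TBP experiment and FOXJ3 batch 1, triangles, FOXJ3 batch 2) and bars are medians. The Ccnb1/Ccnb2 ratio of TBP LOF, with a highest value of 3.73, lies almost wholly under that of its controls, with a lowest value of 3.70.

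Of 60 other genes of the cell cycle machinery, all tested, 21 were lower and 1 was higher in TBP LOF with ERCC scaling, where 29.7% and 1.34% of all features were, with a median log2 fold change of -0.68, near the -0.70 of all genes. With TMM, 11 were lower and 9 higher, where 12.7% and 12.8% of all features were. Called genes stood in 8 of the 9 groups of the list, and no difference between groups was tested. Of 9 mitotic kinases, checkpoint proteins and inhibitors of PP2A, 7 were lower with ERCC scaling, with a group median of -1.69, and with TMM 4 were lower and 1, Mastl, was higher, with a median of -0.89. The 7 include the 3 with the smallest adjusted p of the list: Aurkb, the kinase of the chromosomal passenger complex (log2 -2.42 ± 0.37 SE, edgeR adjusted p = 7.64e-07), Aurka, the kinase of spindle poles (-2.21 ± 0.36 SE, edgeR adjusted p = 1.91e-06), and Bub1, a kinase of the spindle checkpoint (-2.39 ± 0.39 SE, edgeR adjusted p = 2.13e-06). Aurka had 391 to 863 normalised reads in controls (median 517) and 10.3 to 286 in TBP LOF (median 91.5), with no overlap. Aurkb did not overlap either, with 63.7 to 200 in controls (median 104) and 6.59 to 53.1 in TBP LOF (median 16.1). Such a separation was found for 6.69% of all features. Bub1 had 30.3 to 123 in controls (median 57.1) and 5.55 to 34.9 in TBP LOF (median 8.06), ranges that just met. These 3 were called with TMM too, with estimates of -1.66, -1.45 and -1.53 for Aurkb, Aurka and Bub1.

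Among 5 further CDKs and parts of the CDK-activating kinase, which phosphorylates CDK1 and CDK2 on their activating site, 4 were lower with ERCC scaling: Cdk7, Ccnh and Mnat1, its kinase, cyclin and assembly factor, and Cdk4. With TMM, 2 were, Cdk7 and Ccnh. All these counts stand against the 29.7% of all features called lower with ERCC scaling and 12.7% with TMM. Of 8 subunits and partners of the ubiquitin ligases APC/C and SCF, 4 were lower with ERCC scaling: Cdc20, Cdc27, Skp2 and Fbxo5. With TMM, Cdc20 and Skp2 were lower and Cul1 was higher. Of 4 genes that set the phosphate on CDKs, the phosphatase Cdc25c was lower and Wee2, the WEE1-like kinase of oocytes, was the only gene of the 60 that was higher with ERCC scaling (log2 0.82 ± 0.30 SE, edgeR adjusted p = 0.0307), with 155 to 607 normalised reads in controls (median 386) and 246 to 1058 in TBP LOF (median 694). Its estimate with TMM was 1.69, also past the threshold. Of 13 pocket proteins and E2F factors, 1 was lower (E2f7), with a group median of -0.06. With TMM, 4 of these 13 were higher and none lower. Both Cks subunits had estimates near the median gene (-0.72 and -0.64) and did not pass, nor did 5 of 6 further cyclins, 5 of 6 genes of the MuvB complex and its partners and 5 of 7 CDK inhibitors. With TMM, none of these cyclins was called, and 1 gene was lower and 1 higher both in the MuvB group (Lin52 and Foxm1) and among the inhibitors (Cdkn2b and Cdkn1c). Apart from Aurkb, Aurka, Bub1 and Wee2, the genes named among the 60 were picked after their values were seen.

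**Figure D4:**
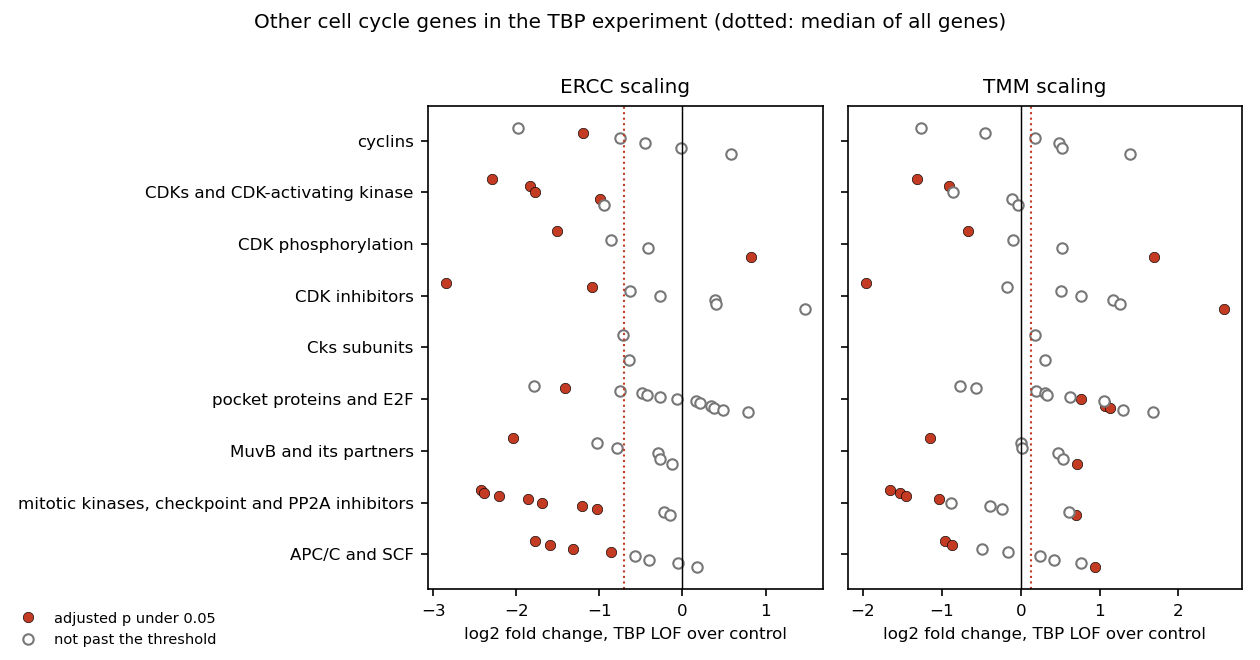
Log2 fold change in TBP LOF of 60 other cell cycle genes by group, with ERCC scaling (left) and TMM (right). Each point is 1 gene, filled where the edgeR adjusted p is under 0.05, and the dotted line is the median of all genes. The CDKs with the CDK-activating kinase and the mitotic kinases with checkpoint genes have the lowest group medians under ERCC scaling, -1.77 and -1.69, and filled points appear on the right only for Wee2 with ERCC scaling but for 9 genes with TMM.

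FOXJ3 LOF and its controls were compared in the same way, with TMM and batch as a covariate, to ask whether FOXJ3 acts on these RNAs. None of the 9 tested regulators passed, none at an unadjusted p under 0.05 and none with DESeq2. Over all features, edgeR called 0.0102% and DESeq2 0.0205%, and 5.76% of genes had an unadjusted p under 0.05. Estimates ran from -0.48 (Ccne2) to 0.18 (Cdk2), with a median of -0.08 against -0.04 for all genes. For the well-covered regulators, the 95% intervals were narrow: Ccna2 from -0.29 to 0.20, Ccnb1 from -0.49 to 0.05, Ccne1 from -0.35 to 0.20, Cdk1 from -0.19 to 0.48 and Cdk2 from -0.16 to 0.51. They were wider for Ccne2 (-1.09 to 0.14), Ccnb2 (-0.57 to 0.29), Cdc25a (-0.50 to 0.40) and Cdc25b (-0.82 to 0.65).

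In TMM-normalised reads, Ccnb1 had 1071 to 2517 in the 13 controls (median 1505) and 1107 to 1938 in the 16 FOXJ3 LOF embryos (median 1383). Cdk1 had 241 to 1438 in controls (median 987) and 687 to 1484 in FOXJ3 LOF (median 1000). For Cdk2 the ranges were 62.5 to 382 (median 256) and 185 to 409 (median 275). Each pair of ranges overlapped, and CONTROL embryo 3 of batch 1 had the lowest CPM of its group in 4 of the 9 genes, Ccna2 (338), Ccne1 (143), Cdk1 (98.2) and Cdk2 (25.5). In Ccne2 (104) and Cdc25b (13.9) this embryo was next to the highest of its group. Without it the estimates were 0.06 for Cdk1 and 0.10 for Cdk2, still without a call. Within batch 1 and batch 2, the estimates were -0.08 and -0.37 for Ccnb1, 0.24 and 0.06 for Cdk1, 0.20 and 0.16 for Cdk2, 0.14 and -0.25 for Ccna2, -0.07 and -0.07 for Ccne1, and -0.82 and 0.01 for Ccne2, none past the threshold. The paralog ratios gave no call either (permutation test within batches, 100000 resamples, adjusted p from 0.730 to 0.952), nor did the 59 of 60 other cell cycle genes that were tested, 1 of which had an unadjusted p under 0.05 and none of which DESeq2 called.

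**Figure D5:**
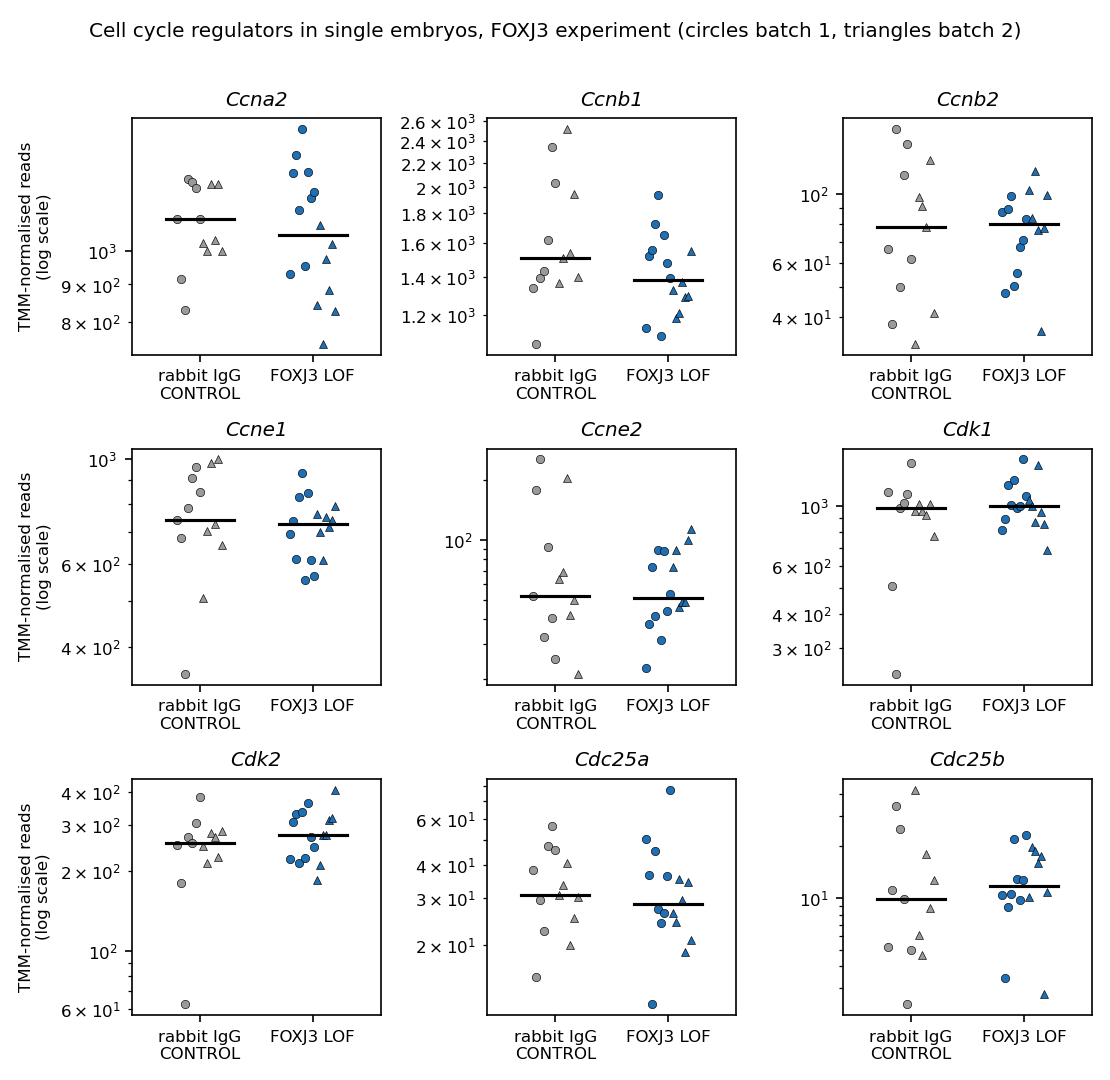
TMM-normalised reads (vertical axis, log scale) of 9 regulators in single embryos of the FOXJ3 experiment. Each point is 1 embryo (13 rabbit IgG CONTROL, 16 FOXJ3 LOF, circles batch 1, triangles batch 2) and bars are medians. The groups overlap in every panel, and single low controls appear for Ccne1, Cdk1 and Cdk2.

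The difference between both effects was tested directly, on the spike-in scale over all 47 embryos, since these experiments share no controls. The TBP effect was lower than the FOXJ3 effect for 6 of 9 regulators, against 28.0% of all features: Cdk2 (log2 difference -2.30 ± 0.40 SE, edgeR adjusted p = 7.78e-06), Cdk1 (-1.86 ± 0.41 SE, edgeR adjusted p = 0.000238), Ccnb1 (-1.64 ± 0.37 SE, edgeR adjusted p = 0.000378), Ccna2 (-1.19, edgeR adjusted p = 0.00875), Ccne1 (-0.94, edgeR adjusted p = 0.0383) and Cdc25a (-1.20, edgeR adjusted p = 0.0472). With TMM, 3 remained past the threshold, Cdk2, Cdk1 and Ccnb1, against 13.2% of features. The calls for Ccne1 and Cdc25a were lost without the filter on low counts (edgeR adjusted p = 0.0894 and 0.0924). For Ccnb2, Ccne2 and Cdc25b the difference did not pass, with 95% intervals of -1.57 to 0.15, -1.60 to 0.42 and -1.76 to 0.77.

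Across the 4 groups, mean CPM placed TBP LOF lowest for 8 of the 9 genes, all but Cdc25b. Ccnb1 was highest in rabbit IgG CONTROL (852 ± 290, SD, n = 13), then FOXJ3 LOF (694 ± 140, n = 16), mouse IgG CONTROL (580 ± 107, n = 9) and TBP LOF (275 ± 107, n = 9). Of the 27 steps between neighbours in these orders (9 genes with 3 steps each), 5 were larger than the larger SD of the neighbours: mouse IgG CONTROL above TBP LOF for Ccna2, Ccnb1, Cdk1 and Cdk2, and FOXJ3 LOF above mouse IgG CONTROL for Ccna2. The other 22 were within it, those of Ccnb2, Ccne1, Ccne2, Cdc25a and Cdc25b included. Neither the orders nor the steps were counted over all features, so both only describe these genes.

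The abundant regulators also varied together between embryos of the same group. With each group and batch centred on its mean, Pearson's r of log2(CPM + 1) over the 47 embryos was 0.80 between Ccna2 and Ccnb1, 0.76 between Ccna2 and Cdk1, 0.72 between Ccnb1 and Cdk1 and 0.69 between Cdk1 and Cdk2. For Ccne2, r was -0.41 with Cdk1, -0.15 with Ccna2, -0.13 with Ccnb1, -0.13 with Cdk2, -0.08 with Ccne1 and 0.27 with Ccnb2. Ccnb2 had further values of 0.33 with Ccnb1, 0.31 with Ccne1, 0.19 with Ccna2, 0.11 with Cdk1 and 0.05 with Cdk2. Among 4214 genes with a mean of at least 50 reads, the likest to Ccnb1 was Kpna2 (r = 0.95), to Cdk1 Rars (0.90), to Ccna2 Tbp (0.85) and to Ccne1 H2afz (0.81), where the median r over all those genes was 0.36 to 0.40. The points share library depth and composition, and these values are a description. Pearson's r with log2 library depth, centred in the same way, was 0.16 for Ccnb1, -0.02 for Ccna2, 0.02 for Cdk1 and 0.26 for Ccne1. No embryo was left out of these correlations.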

How the data were processed

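Single embryos were sequenced with Smart-seq+5'. Per the study's methods and the submitters' processing notes, the authors mapped reads of transcript 5' ends with STAR 2.7.11a to GRCm38 and counted them with TEcount per gene, ERCC transcript and transposable element family. The deposited values are estimated counts, all whole numbers, without normalization. The sources used here do not say whether counting used strand, and reads of Ccna2 and Exosc9, Ccne2 and Ints8, Cdk2 and Pmel, and Cdc25b and Spef1, which overlap, may be shared.

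Groups follow the labels. The study's limits on embryos were applied: no fewer than 500000 counted reads and 1000 detected genes, and no more than 10% mitochondrial and 15% ERCC reads. CONTROL embryo 7 of the TBP experiment and FOXJ3 LOF embryo 7 of batch 1 fell below the read minimum. Subfamily rows were added to their families, giving 1343. Symbols and coordinates came from GENCODE M21. Features detected (1 read or more) in 25% or more of the embryos compared were tested with edgeR 4.0.16 (two-sided quasi-likelihood test, Benjamini-Hochberg, threshold 0.05), 19356 for TBP and 19517 for FOXJ3. TBP embryos were scaled by the median of ratios over 42 ERCC transcripts, and FOXJ3 embryos by TMM with batch as a covariate. SEs were derived from the F statistic. The difference of effects was fitted over all 4 groups with a term for batch 2. The fits and permutation tests were tested on simulated data. Alternatives were DESeq2 1.42.0, other scalings, filters and embryo sets, and a replicate block. R 4.3.3, Python 3.11.15, numpy 2.4.6, pandas 2.3.3 and matplotlib 3.10.9 were used.

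Genes named were the 10 regulators and, of the other cell cycle genes, the 3 called each way with the lowest adjusted p, with exceptions stated. For the 4 regulators with most reads in controls, the likest gene was named. The regulators, lists and tests were chosen with earlier results of these data known. Counts per single transposable element insertion were not used here. Reads were amplified by PCR and carry no molecular identifier, so that limits set from counts cover counting error only.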

Additional observations from a re-analysis of the deposited data

Results flagged for a closer look

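Of 18 sets of normalised reads examined (9 regulators in TBP LOF and in its controls), 2 had an embryo further from the rest than Dixon's 95% critical value for 9 samples, where about 1 in 20 would by chance. Ccnb1 in mouse IgG CONTROL embryo 8 was at 1944 normalised reads, with the next embryo at 1471. Cdc25a in mouse IgG CONTROL embryo 1 was at 92.7, with the next at 42.8, and the call for Cdc25a was lost without this embryo (log2 -0.72, edgeR adjusted p = 0.174).

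The effects of TBP and FOXJ3 depletion differed by the test of the difference for 6 regulators, all lower. Of all features, 28.0% were lower in this test, and 13.2% with TMM. The log2 differences were -2.30 for Cdk2, -1.86 for Cdk1, -1.64 for Ccnb1, -1.19 for Ccna2, -1.20 for Cdc25a and -0.94 for Ccne1 on the spike-in scale, and the first 3 passed with TMM as well.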

How the results depend on the processing

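The count of regulators lower in TBP LOF was 6 with ERCC scaling and 3 with TMM and with DESeq2 size factors, which set the median gene near 0 by construction. Of all genes, 29.8% were lower with ERCC scaling and 12.9% with each of the others. The count for the difference of effects also went from 6 to 3 with TMM, and was 4 without a filter and 5 with all embryos. In the same order, 28.2%, 13.5%, 16.3% and 28.7% of genes were lower. With ERCC scaling, leaving out each embryo gave 4 to 7 for TBP (4 without CONTROL embryo 10) and 19 to 24 for the other cell cycle genes. Genes called lower in those fits ran from 27.2% (without CONTROL embryo 10) to 31.3% (without TBP LOF embryo 8). FOXJ3 counts were 0 under all alternatives run.

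In TBP LOF, estimates turned positive with TMM and DESeq2 size factors for Ccnb2 (0.21 and 0.24), Ccne1 (0.055 and 0.081), Ccne2 (0.11 and 0.16) and Cdc25b (0.59 and 0.62), none past the threshold. In FOXJ3 LOF, estimates turned positive with ERCC scaling for Ccna2 (0.14), Ccnb2 (0.058), Ccne1 (0.11), Cdc25a (0.21) and Cdc25b (0.24), in batch 1 alone for Ccna2 (0.14) and Cdc25a (0.059), in batch 2 alone for Ccnb2 (0.10) and Ccne2 (0.0094), with the level of the injected mCherry-Trim21 as covariate for Ccna2 (0.015) and Ccnb2 (0.064), and on leaving out 1 embryo for Cdc25a (-0.16 to 0.020) and Cdc25b (-0.19 to 0.15). The cause was not tested. Of 603 values of single regulators under alternatives, 562 kept direction and side of the threshold.

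Same-numbered embryos correlated by -0.05 to 0.13 (TBP, 7 pairs) and -0.20 to 0.27 (FOXJ3, 12 pairs). No correlation was taken between differently numbered embryos, so whether the numbers pair the samples was not tested. With the replicate block, 5 regulators were called in TBP LOF in place of 6, where 24.0% of genes were lower in place of 29.8%. Cdc25a was not called (-0.97, edgeR adjusted p = 0.0592). The estimates of Cdc25b in TBP LOF (0.043) and of Ccne1 in FOXJ3 LOF (0.0097) were positive. Depth limits Ccna1, Cdc25a and Cdc25b, with 2, 1545 and 675 reads in all kept embryos.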
